A study of Arabidopsis thaliana with 16 samples.

Results

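The comparison set 4 libraries of untreated Arabidopsis thaliana seedlings that carry a lasting defect in the 26S proteasome against 4 libraries of wild-type seedlings whose proteasome was blocked for a day. The members were chosen by their labels alone: rpn12a-1 No Treatment replicates 1 and 2 and rpn10-1 No Treatment replicates 1 and 2 formed the mutant group, and Col-0 with 100 µM MG132 for 24 h, replicates 1 to 4, formed the inhibitor group, which makes 8 of the 16 libraries in the series. The 4 untreated Col-0 libraries gave the wild-type level of each gene, and the 4 Col-0 libraries with 3 h of MG132 entered only the fit and counts over all 12 Col-0 libraries. All were polyA-selected RNA of whole seedlings, 5 days old when harvested untreated or when the inhibitor was added, from liquid culture with sucrose under constant light. The mutants and the untreated Col-0 were frozen without an incubation, whereas the MG132 seedlings had a change of medium and 24 h more in culture. MG132, the medium change, its solvent and the added day therefore cannot be told apart. Each mutant is a single allele, and the background accession of the mutants is not given in the labels used here.

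The 26S proteasome degrades proteins tagged with ubiquitin. Its 20S core particle holds the peptidase sites, and its 19S regulatory particle recognises, unfolds and feeds in the tagged proteins; RPN10 is a ubiquitin receptor of the regulatory particle and RPN12a one of its lid subunits. MG132 is a peptide aldehyde that blocks the peptidase sites. When proteasome capacity falls, plants raise the transcripts of most proteasome subunits and of helper factors together, a response known to depend on the NAC transcription factors NAC053 and NAC078 in Arabidopsis.

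The deposited values were whole-number read counts for 33602 genes, and the 8 libraries held 8444232 to 21762565 counts each. Levels are given below as CPM (counts scaled to a common library size) after scaling for library composition, which compares a gene between libraries but not one gene with another, since it is not corrected for length. A change is a log2 difference, mutants minus Col-0 24 h MG132 unless stated, from edgeR's quasi-likelihood test over 21205 genes with enough counts, with its standard error (SE), and a gene was called at a Benjamini-Hochberg adjusted p under 0.05. Nothing in the labels says that replicates came from separate cultures, so the p-values measure the spread between these libraries. The libraries came in sets with and without a technical replicate note. Each side had 2 libraries of each set, but rpn12a-1 lay wholly in the set with the note and rpn10-1 in the set without it, so genotype and set coincide within the mutants. The targeted genes followed the labels. RPN12A stood at 52 and 42.9 CPM in rpn12a-1, against 167 and 165 CPM in rpn10-1 and a mean of 85.4 CPM in untreated Col-0. RPN10 stood at 21.4 and 22.2 CPM in rpn10-1, against 329 and 340 CPM in rpn12a-1 and a mean of 115 CPM in untreated Col-0. Each gene was thus above untreated Col-0 in the other mutant.

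The mutants and the MG132 seedlings differed in 4667 genes. In the mutants 2345 genes were higher, which is 11.1% of those tested, and 2322 were lower, which is 11.0%, and 2012 of the calls were at least 2-fold. The median change over all genes tested was 0.02. For orientation, the mutants differed from untreated Col-0 in 2008 genes, of which 928 were higher (4.38%) and 1080 lower (5.09%), whereas Col-0 24 h MG132 differed from untreated Col-0 in 4678 genes, of which 2231 were higher (10.5%) and 2447 lower (11.5%). These last comparisons share the untreated Col-0 libraries, so their values are set side by side below and not compared by a test. The mutant count against untreated Col-0 leaned on single libraries: it was 1206 without untreated Col-0 replicate 1 and 1266 without untreated Col-0 replicate 2. The gene lists below give counts of called members in each direction, 21 of which were 0 for mutants against MG132 by edgeR. At an unadjusted p under 0.05 those 21 counts would hold 2 genes together, and DESeq2 called 0. For mutants against untreated Col-0 the 22 counts of 0 would hold 11 genes unadjusted and 1 by DESeq2, and for MG132 against untreated Col-0 the 23 counts of 0 would hold 5 unadjusted and 1 by DESeq2.

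**Figure D1:**
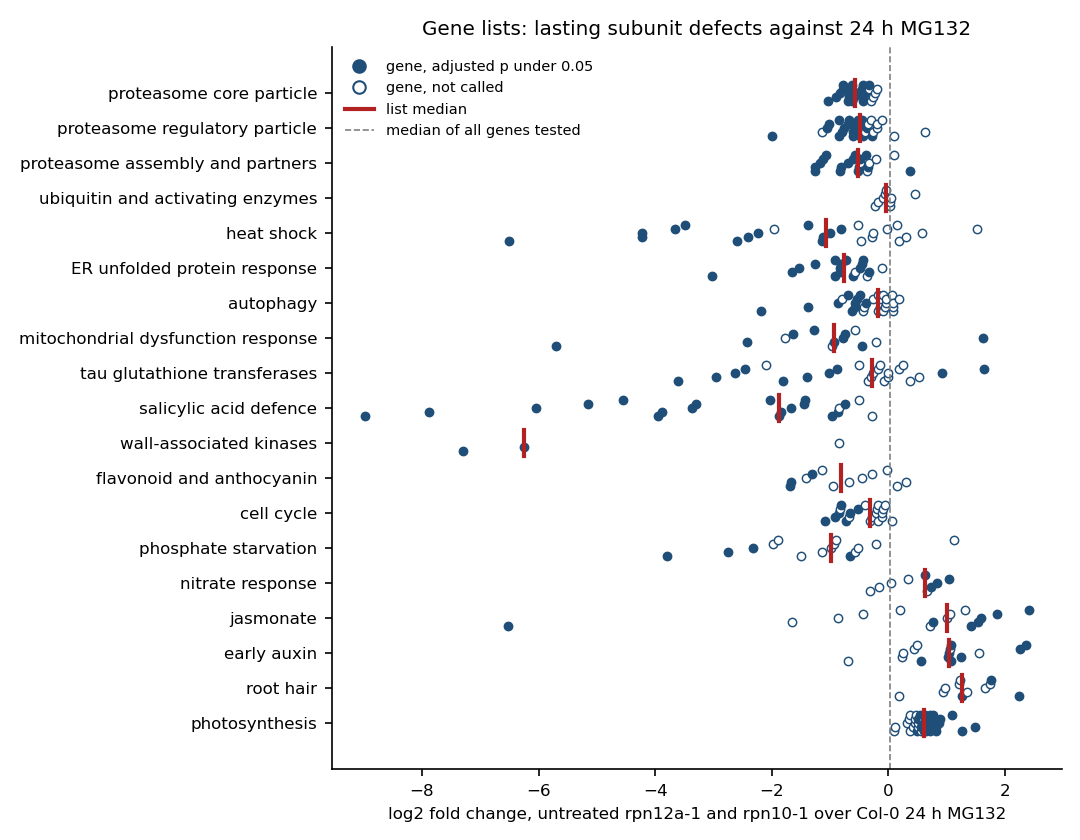
Log2 change of each tested gene of the gene lists (horizontal axis) in the untreated mutants over Col-0 24 h MG132, with 1 row per list, filled points for genes at an adjusted p under 0.05, open points for the others, a red bar at the list median and a dashed line at the median of all genes tested. Filled points of the core particle and ER lists all lie below 0, and those of photosynthesis (28 of 42) and early auxin (8 of 15) all lie above 0.

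Genes of the proteasome itself were raised on both sides, and were lower in the mutants than under MG132. Of 24 core particle genes, 19 were lower in the mutants and none was higher, with a median change of −0.57. Against untreated Col-0 all 24 were higher in the mutants, with a median of 1.54, and all 24 were higher under MG132, with a median of 2.08. All 4 mutant libraries lay below all 4 MG132 libraries for 21 of the 24, where such a gap occurred for 12.1% of the genes tested. Without rpn10-1 replicate 2 the number called lower was 12 in place of 19.

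PAA2, a core subunit of the alpha ring on chromosome 2, stood at 466 and 471 CPM in rpn12a-1, 472 and 439 CPM in rpn10-1, 1080, 1060, 891 and 802 CPM under MG132, and 80.1, 83.7, 70.1 and 64.8 CPM in untreated Col-0. The 4 mutant libraries were nearly level with each other and every MG132 library was higher, a change of −1.04 ± 0.12 (SE, adjusted p = 2.9e-05). PBB1, which encodes a catalytic beta subunit, stood at 190 and 192 CPM in rpn12a-1, 149 and 153 CPM in rpn10-1, 329, 333, 278 and 289 CPM under MG132, and 122, 120, 97.4 and 91.6 CPM in untreated Col-0. The groups did not overlap, and the change between mutants and MG132 was −0.83 ± 0.13 (adjusted p = 3e-04). The alpha subunit genes PAB1 and PAC1 were lower in the mutants by similar amounts, −0.90 ± 0.11 (adjusted p = 2.6e-05) and −0.78 ± 0.14 (adjusted p = 0.0013).

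PAD1, an alpha subunit gene chosen after its values were seen, had the smallest difference of the list. It stood at 314 and 370 CPM in rpn12a-1, 304 and 280 CPM in rpn10-1, 392, 387, 328 and 348 CPM under MG132, and 123, 130, 98.3 and 96.3 CPM in untreated Col-0. Mutants and MG132 overlapped, the change was −0.19 ± 0.13 (adjusted p = 0.31), and both sides lay above untreated Col-0 by 1.51 ± 0.13 in the mutants (adjusted p = 2e-06) and 1.71 ± 0.13 under MG132 (adjusted p = 3.2e-07). Its paralogue PAD2 differed by −0.79, and reads shared between such copies may have been split or dropped in counting, which the sources used here do not describe.

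Of 32 regulatory particle genes, 22 were lower in the mutants and none was higher, with a median of −0.49. Against untreated Col-0, 24 were higher and 2 lower in the mutants (median 1.19), and 27 were higher and none lower under MG132 (median 1.54). The 2 that were lower in the mutants than in untreated Col-0 were DSS1(I), −0.62, and AT5G45620, −0.40, both of which were not called under MG132, at 0.06 and 0.12. RPN12A, 1 of the targeted genes, is counted among the 22, at −2.00.

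RPN6, a lid subunit gene, stood at 206 and 201 CPM in rpn12a-1, 141 and 152 CPM in rpn10-1, 354, 353, 367 and 365 CPM under MG132, and 136, 133, 111 and 102 CPM in untreated Col-0. The MG132 libraries lay close together and well above the mutants, among which rpn10-1 sat near the upper untreated Col-0 libraries, and the change was −1.05 ± 0.14 (adjusted p = 1e-04). DSS1(V), the other of 2 genes for a small lid-associated subunit, stood at 55 and 66.4 CPM in rpn12a-1, 64.6 and 73.6 CPM in rpn10-1, 150, 163, 120 and 100 CPM under MG132, and 48.5, 47.3, 32.3 and 32.6 CPM in untreated Col-0. Its change was −1.01 ± 0.14 (adjusted p = 0.00014). AT5G23540, annotated as a Mov34/MPN/PAD-1 family protein, stood at 267 and 273 CPM in rpn12a-1, 251 and 224 CPM in rpn10-1, 464, 480, 442 and 438 CPM under MG132, and 97, 102, 73 and 76.2 CPM in untreated Col-0, a change of −0.84 ± 0.14 (adjusted p = 0.00059). In each of these 3 genes all mutant libraries lay below all MG132 libraries.

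Of 21 assembly factors, activators, shuttle factors and other partners, 15 were lower in the mutants and 1 was higher, with a median of −0.52. Against untreated Col-0, 13 were higher and none lower in the mutants (median 0.85), and 19 were higher and 1 lower under MG132 (median 1.74). AT1G67250, annotated as proteasome maturation factor UMP1, which assists core particle assembly in yeast, stood at 69.4 and 83.6 CPM in rpn12a-1, 66.4 and 69 CPM in rpn10-1, 204, 224, 147 and 136 CPM under MG132, and 35.8, 39.5, 27 and 29.8 CPM in untreated Col-0. Its change of −1.26 ± 0.16 (adjusted p = 5.2e-05) separated the groups fully. PA200, a proteasome activator gene that was chosen after its values were seen, had the same change, −1.26 ± 0.22 (adjusted p = 0.00087), with 309 and 289 CPM in rpn12a-1, 230 and 233 CPM in rpn10-1, 683, 690, 652 and 449 CPM under MG132, and 71.5, 56.1, 74.8 and 64.5 CPM in untreated Col-0.

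UBP7, a deubiquitinating enzyme gene, stood at 25 and 23.8 CPM in rpn12a-1, 21.8 and 19.5 CPM in rpn10-1, 49.2, 55.4, 51.4 and 46.6 CPM under MG132, and 13.8, 11.5, 11.6 and 13.2 CPM in untreated Col-0. Its change was −1.17 ± 0.11 (adjusted p = 4.4e-06). DDI1, a gene of the ubiquitin-like shuttle family, stood at 76.5 and 80.3 CPM in rpn12a-1, 65.4 and 60.2 CPM in rpn10-1, 163, 141, 157 and 131 CPM under MG132, and 35.4, 35.9, 32 and 30.5 CPM in untreated Col-0, a change of −1.07 ± 0.14 (adjusted p = 8e-05). Both formed 3 separate steps, with MG132 highest, the mutants between and untreated Col-0 lowest. AtCDC48B, for an ATPase of the CDC48 family and also chosen after its values were seen, had 225 and 202 CPM in rpn12a-1, 137 and 182 CPM in rpn10-1, 307, 309, 347 and 329 CPM under MG132, and 20.5, 17, 18.4 and 18.3 CPM in untreated Col-0.

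That pattern placed AtCDC48B lower in the mutants than under MG132 by 0.81 on the log2 scale (SE 0.16, adjusted p = 0.0022), while both lay far above untreated Col-0, by 3.31 ± 0.18 in the mutants (adjusted p = 1.1e-08) and by 4.11 ± 0.18 under MG132 (adjusted p = 1.1e-09). The exception in direction was RAD23C, a ubiquitin shuttle gene chosen after its values were seen, which was higher in the mutants by 0.36 ± 0.12 (adjusted p = 0.041). It had 85 and 75.1 CPM in rpn12a-1, 70.7 and 63 CPM in rpn10-1, 59.9, 60.1, 52.7 and 54.4 CPM under MG132, and 71, 76.2, 74.3 and 77.9 CPM in untreated Col-0. That call was lost without rpn12a-1 replicate 1 (adjusted p = 0.11) or 2 (0.08), without rpn10-1 replicate 1 (0.074), or without MG132 replicate 3 (0.16) or 4 (0.11).

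The genes of the NAC regulators themselves were lower in the mutants than under MG132 and near untreated Col-0. NAC053 stood at 16.6 and 15.8 CPM in rpn12a-1, 16.4 and 15.6 CPM in rpn10-1, 28.6, 37.7, 26.9 and 21.6 CPM under MG132, and 18.3, 16.1, 14.9 and 15.6 CPM in untreated Col-0. The mutants differed from untreated Col-0 by −0.01 ± 0.19 (adjusted p = 0.98), whereas every MG132 library was higher than every mutant library, a change of −0.83 ± 0.19 (adjusted p = 0.0059). NAC078 stood at 68.2 and 68.4 CPM in rpn12a-1, 51.9 and 58.7 CPM in rpn10-1, 67.4, 74, 86.4 and 85.2 CPM under MG132, and 59.5, 65.1, 62 and 59.5 CPM in untreated Col-0. Its smaller change of −0.34 ± 0.10 (adjusted p = 0.018) was lost without rpn10-1 replicate 1 (−0.29, adjusted p = 0.051). Both rpn12a-1 libraries lay above MG132 replicate 1, and the mutants differed from untreated Col-0 by −0.003 (adjusted p = 0.99). Within sets NAC078 was not called for rpn10-1 (adjusted p = 0.15) or for rpn12a-1 (0.1).

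The distance between mutants and MG132 was wider for rpn10-1 than for rpn12a-1 when each was set only against the MG132 libraries of its own set. The MG132 libraries thus differ between these distances, and genotype and set coincide. Mutant and set cannot be told apart in this difference. For the core particle the medians were −0.29 for rpn12a-1, with 4 genes called lower, and −0.85 for rpn10-1, with 19 called lower. For the regulatory particle they were −0.33 with 9 called and −0.70 with 19, and for assembly factors and partners −0.38 with 9 and −0.68 with 13. The direct comparison of rpn12a-1 with rpn10-1 called 6 core genes higher and none lower, 1 regulatory gene higher (RPN10) and 1 lower (RPN12A), and no assembly or partner gene by edgeR, although 2 passed an unadjusted p under 0.05 and DESeq2 called 2; over all genes it called 3.85% higher and 2.46% lower.

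The promoters of 3 of these genes are shown because TGGGC is a known element of proteasome gene promoters in Arabidopsis and because these genes moved together. The windows are the 250 bases before the annotated gene start in TAIR10.1, read 5′ to 3′ on the gene's strand, with TGGGC or its reverse complement GCCCA in capitals. PAA2 is chr2:2233769-2234018 on the plus strand and holds neither form. PBB1 is chr3:10152208-10152457 on the plus strand with 3 matches, and AT1G67250 is chr1:25165057-25165306 on the minus strand with 3 matches.
PAA2: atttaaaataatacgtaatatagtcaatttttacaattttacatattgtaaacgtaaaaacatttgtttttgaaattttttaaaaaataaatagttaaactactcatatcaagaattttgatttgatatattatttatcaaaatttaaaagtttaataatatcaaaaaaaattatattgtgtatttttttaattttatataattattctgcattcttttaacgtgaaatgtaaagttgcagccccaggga
PBB1: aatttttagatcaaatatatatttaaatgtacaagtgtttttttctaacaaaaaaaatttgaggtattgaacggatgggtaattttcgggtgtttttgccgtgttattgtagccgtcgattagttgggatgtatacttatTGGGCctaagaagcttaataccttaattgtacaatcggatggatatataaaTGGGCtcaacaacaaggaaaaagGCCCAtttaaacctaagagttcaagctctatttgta
AT1G67250: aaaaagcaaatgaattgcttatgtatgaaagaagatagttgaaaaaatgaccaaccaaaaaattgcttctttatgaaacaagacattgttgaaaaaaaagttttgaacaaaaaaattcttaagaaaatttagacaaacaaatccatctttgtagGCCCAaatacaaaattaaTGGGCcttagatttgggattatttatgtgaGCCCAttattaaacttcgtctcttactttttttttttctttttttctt
TGGGC on either strand was present in 13 of 24 core particle windows (54.2%), 14 of 32 regulatory particle windows (43.8%) and 11 of 21 assembly and partner windows (52.4%), against 6231 of 27443 windows of all nuclear protein-coding genes (22.7%). The heat shock list held it in 13 of 25 windows (52%), the ER list in 9 of 18 (50%), and all genes tested in 25.3%. A match is a run of letters and not a measured binding site.

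The genes for ubiquitin and its activating enzymes did not separate the groups. None of 9 was called in either direction by edgeR, with a median of −0.04, and none at an unadjusted p under 0.05 or by DESeq2. UBQ10, a polyubiquitin gene, stood at 1770 and 1460 CPM in rpn12a-1, 1390 and 1760 CPM in rpn10-1, 1750, 1830, 1910 and 1990 CPM under MG132, and 1290, 1440, 1400 and 1270 CPM in untreated Col-0. The libraries of mutants and MG132 overlapped, and the change was −0.23 ± 0.16 (adjusted p = 0.35).

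**Figure D2:**
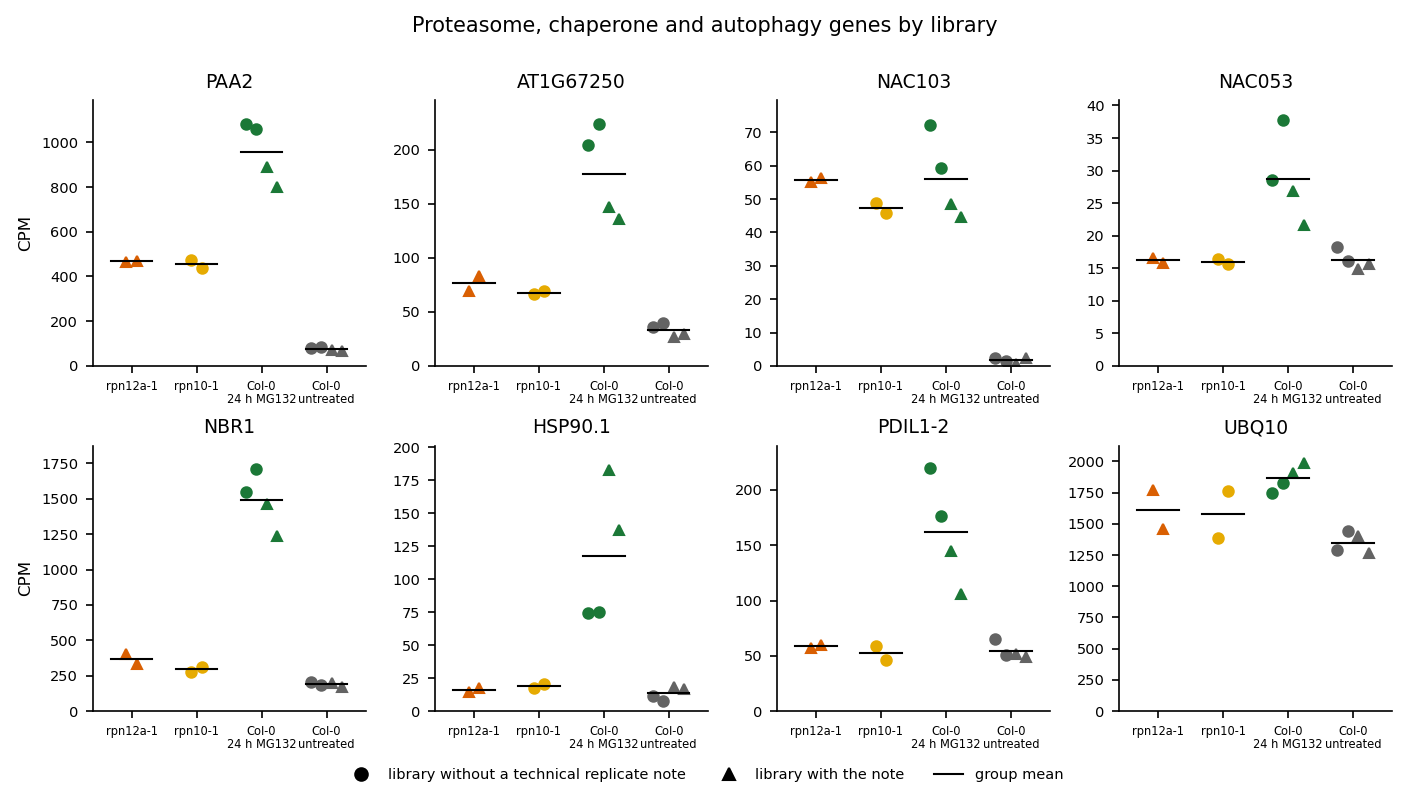
CPM in each library for 8 genes of proteasome, chaperone and autophagy lists, with each point a library and the bar the group mean, for rpn12a-1, rpn10-1, Col-0 24 h MG132 and untreated Col-0 from left to right (circles for libraries without the note, triangles for those with it). PAA2 and AT1G67250 form 3 steps, NAC103 is level between mutants and MG132, NAC053, HSP90.1 and PDIL1-2 are high in the MG132 libraries and near untreated Col-0 in the mutants, and UBQ10 overlaps across the mutants and MG132.

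Heat shock genes were lower in the mutants than under MG132. The list also holds organelle members and transcription factors. Heat shock proteins bind misfolded proteins, and the small heat shock proteins among them are near-silent in unstressed plants. Of 24 heat shock genes tested, 13 were lower in the mutants than under MG132 and none was higher, with a median of −1.06. Against untreated Col-0, none was higher and 3 were lower in the mutants (median −0.52). Under MG132, 9 were higher and none lower (median 0.55), a count that was 4 or 5 without untreated Col-0 replicate 2 (5), untreated Col-0 replicate 3 (4) or MG132 replicate 3 (4).

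HSP17.4, a small heat shock protein gene, stood at 0.118 and 0.0941 CPM in rpn12a-1, 0.137 and 0.652 CPM in rpn10-1, 15, 26.2, 23 and 13.3 CPM under MG132, and 1.06, 0.102, 0.289 and 0.277 CPM in untreated Col-0. Every MG132 library was far above every other library, a change of −6.50 ± 0.62 (adjusted p = 4.3e-06). AT1G07400, annotated as an HSP20-like chaperone, stood at 1 and 1.18 CPM in rpn12a-1, 1.44 and 0.838 CPM in rpn10-1, 9.11, 17, 29.4 and 30.7 CPM under MG132, and 2.11, 2.25, 1.16 and 0.899 CPM in untreated Col-0. Its change was −4.22 ± 0.38 (adjusted p = 2.1e-06). HSP90.1, the stress-inducible HSP90 gene, stood at 14.8 and 17.8 CPM in rpn12a-1, 17.6 and 20.6 CPM in rpn10-1, 74.5, 74.8, 183 and 137 CPM under MG132, and 11.4, 7.38, 18.6 and 16.7 CPM in untreated Col-0. The mutants lay around the upper end of untreated Col-0, 0.50 ± 0.25 above it (adjusted p = 0.24), and below MG132 by −2.59 ± 0.26 (adjusted p = 6.3e-06).

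HSP23.6-MITO, a mitochondrial small heat shock protein gene, differed in another way. It had 0.118 and 0 CPM in rpn12a-1, 0.137 and 0.186 CPM in rpn10-1, 0.429, 0.905, 2.03 and 1.69 CPM under MG132, and 0.99, 1.02, 1.59 and 2.21 CPM in untreated Col-0. The mutants were below both other groups, by −3.66 ± 0.50 against MG132 (adjusted p = 0.00011) and −3.84 ± 0.49 against untreated Col-0 (adjusted p = 9.6e-05), while MG132 and untreated Col-0 differed by −0.18 ± 0.32 (adjusted p = 0.74). ROF2 was likewise called lower against both.

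The promoter of HSP17.4 is shown for GAANNTTC, a pairing of heat shock element units, in capitals in the 250 bases at chr3:16984868-16985117 on the minus strand.
HSP17.4: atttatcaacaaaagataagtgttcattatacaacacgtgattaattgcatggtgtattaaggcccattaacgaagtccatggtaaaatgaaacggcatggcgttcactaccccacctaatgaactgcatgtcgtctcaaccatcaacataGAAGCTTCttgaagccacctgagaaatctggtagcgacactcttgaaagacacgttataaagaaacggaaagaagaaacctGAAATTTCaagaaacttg
It holds 2 matches, and 7 of 25 heat shock windows held the letters (28%), against 2621 of 27443 windows of all nuclear protein-coding genes (9.55%). Higher shares were found for salicylic acid defence (7 of 21, 33.3%), phosphate starvation (7 of 15, 46.7%) and wall-associated kinases (3 of 5, 60%). The motif reads the same on both strands.

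The endoplasmic reticulum (ER) unfolded protein response was lower in the mutants than under MG132. This response adds folding enzymes and chaperones to the ER when misfolded proteins collect there. Of 18 genes, 15 were lower in the mutants and none was higher, with a median of −0.76. Against untreated Col-0, 1 was higher and none lower in the mutants (median 0.08), and 17 were higher and none lower under MG132 (median 0.89). For 17 of the 18 all mutant libraries lay below all MG132 libraries, where such a gap occurred for 12.1% of the genes tested.

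PDIL1-2, a protein disulfide isomerase gene, stood at 57.1 and 59.8 CPM in rpn12a-1, 58.6 and 46.4 CPM in rpn10-1, 220, 176, 145 and 106 CPM under MG132, and 65.5, 50.9, 51.4 and 48.8 CPM in untreated Col-0. Mutants and untreated Col-0 overlapped, and the change against MG132 was −1.52 ± 0.18 (adjusted p = 3.5e-05). ATERDJ3A, a gene for a J-domain co-chaperone, stood at 2.41 and 3.1 CPM in rpn12a-1, 3.49 and 3.07 CPM in rpn10-1, 8.58, 9.87, 11.2 and 8.07 CPM under MG132, and 4.42, 4.1, 2.89 and 3.6 CPM in untreated Col-0, a change of −1.65 ± 0.18 (adjusted p = 1.6e-05). The disulfide isomerase gene PDIL1-1 and the co-chaperone gene ERDJ3B were lower in the mutants by −0.92 ± 0.15 (adjusted p = 0.00064) and −0.91 ± 0.13 (adjusted p = 0.00012).

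The exception, chosen after its values were seen, was NAC103, a NAC transcription factor gene placed downstream of bZIP60 in the ER response of Arabidopsis. It stood at 55.1 and 56.3 CPM in rpn12a-1, 48.9 and 45.9 CPM in rpn10-1, 72.2, 59.2, 48.5 and 44.5 CPM under MG132, and 2.24, 1.54, 0.723 and 2.28 CPM in untreated Col-0. Mutants and MG132 overlapped, with a change of −0.12 ± 0.22 (adjusted p = 0.75), and both lay far above untreated Col-0, by 4.90 ± 0.28 in the mutants (adjusted p = 2.3e-08) and 5.02 ± 0.28 under MG132 (adjusted p = 1.2e-08). The sign of that small change varied between settings, at 0.01 without MG132 replicate 1. The bZIP60 gene itself, BZIP60, was not called in the mutants against untreated Col-0 (0.08) and was higher under MG132 (0.91).

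Of 29 autophagy genes, 10 were lower in the mutants and none was higher, with a median of −0.18. Against untreated Col-0, 3 were higher and 1 lower in the mutants, and 11 were higher and none lower under MG132. NBR1, a receptor that carries ubiquitin-tagged cargo to autophagosomes, stood at 404 and 334 CPM in rpn12a-1, 276 and 315 CPM in rpn10-1, 1550, 1710, 1460 and 1240 CPM under MG132, and 208, 188, 198 and 169 CPM in untreated Col-0. The mutants lay above untreated Col-0 by 0.79 ± 0.17 (adjusted p = 0.0077) and below MG132 by −2.18 ± 0.18 (adjusted p = 8.2e-07), with no overlap on either side.

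AT3G61960, annotated as a protein kinase and listed with the ATG1 kinases, stood at 31.4 and 35.2 CPM in rpn12a-1, 35.1 and 27.9 CPM in rpn10-1, 114, 98.4, 71 and 55.6 CPM under MG132, and 23.3, 23.8, 30.8 and 25.8 CPM in untreated Col-0. Its change was −1.39 ± 0.21 (adjusted p = 0.00025). ATG8C, for a ubiquitin-like autophagosome protein, was the member that was lower in the mutants than in untreated Col-0. It stood at 17.1 and 17.8 CPM in rpn12a-1, 13.8 and 14.7 CPM in rpn10-1, 22.8, 31.1, 27.5 and 33.9 CPM under MG132, and 29.5, 30.8, 27.1 and 26.3 CPM in untreated Col-0, where MG132 and untreated Col-0 overlapped.

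The mitochondrial dysfunction response, in which nuclear genes for alternative respiration rise when mitochondria are impaired, had 8 of 13 genes lower in the mutants and 1 higher, with a median of −0.93. Against untreated Col-0, 3 were higher and 2 lower in the mutants (median 0.13), and 8 were higher and 2 lower under MG132 (median 1.29). AOX1D, an alternative oxidase gene, had 0 CPM in both rpn12a-1 libraries, 0.137 and 0.0931 CPM in rpn10-1, 4.07, 4.26, 3.05 and 0.983 CPM under MG132, and 0, 0.102, 0 and 0 CPM in untreated Col-0. With 3 counts in the mutants and 147 under MG132, the summed level was 61.9 times higher under MG132 (95% counting interval 20.8 to 304), and 143 times without rpn10-1 replicate 1 (25.3 to 5690). NDB4, an alternative NAD(P)H dehydrogenase gene, stood at 2.06 and 2.4 CPM in rpn12a-1, 1.57 and 2.14 CPM in rpn10-1, 9.22, 5.61, 17.7 and 12.4 CPM under MG132, and 1.98, 1.74, 0.651 and 1.66 CPM in untreated Col-0, a change of −2.43 ± 0.33 (adjusted p = 1e-04).

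Neither gene was called in the mutants against untreated Col-0, unlike AT2G21640, annotated as a marker for oxidative stress response. It stood at 8.29 and 9.31 CPM in rpn12a-1, 22.4 and 18.6 CPM in rpn10-1, 47.3, 41.7, 45.5 and 41.4 CPM under MG132, and 3.17, 4, 4.34 and 6.5 CPM in untreated Col-0. The 4 groups did not overlap, and the mutants were 1.63 ± 0.30 above untreated Col-0 (adjusted p = 0.0026) and −1.63 ± 0.28 below MG132 (adjusted p = 0.00073). The member that was higher in the mutants than under MG132, DIC2, a mitochondrial dicarboxylate carrier gene chosen after its values were seen, had 10.5 and 38.8 CPM in rpn12a-1, 12.1 and 15.1 CPM in rpn10-1, 4.72, 5.25, 7.93 and 7.09 CPM under MG132, and 37.6, 37.6, 12.1 and 12 CPM in untreated Col-0. Its call (1.62 ± 0.49, adjusted p = 0.028) was lost without MG132 replicate 1 (0.082), MG132 replicate 2 (0.083) or rpn12a-1 replicate 2 (0.17, with a change of 0.76), these being adjusted p.

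Of 24 tau glutathione transferase genes tested, whose enzymes conjugate reactive compounds to glutathione, 8 were lower in the mutants and 2 higher, with a median of −0.29. Over all genes tested 11.0% were lower and 11.1% higher. Against untreated Col-0, 2 were higher and 1 lower in the mutants, where 4.38% and 5.09% of all genes were. Under MG132, 8 were higher and 3 lower, where 10.5% and 11.5% of all genes were. GSTU25 stood at 5.59 and 9.46 CPM in rpn12a-1, 7.6 and 7.08 CPM in rpn10-1, 47.8, 64.4, 159 and 90.2 CPM under MG132, and 8.18, 8.3, 4.41 and 1.94 CPM in untreated Col-0. Its change was −3.60 ± 0.43 (adjusted p = 2.8e-05). GSTU4, with −2.46 ± 0.37 (adjusted p = 0.00027), and GSTU24, with −1.80 ± 0.28 (adjusted p = 0.00035), were lower in the mutants as well. The 2 that were higher in the mutants were GSTU18, at 0.92, and GSTU26, at 1.63, a share no higher than that of all genes. This family holds close tandem copies, so single-gene values are uncertain where reads are shared.

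**Figure D3:**
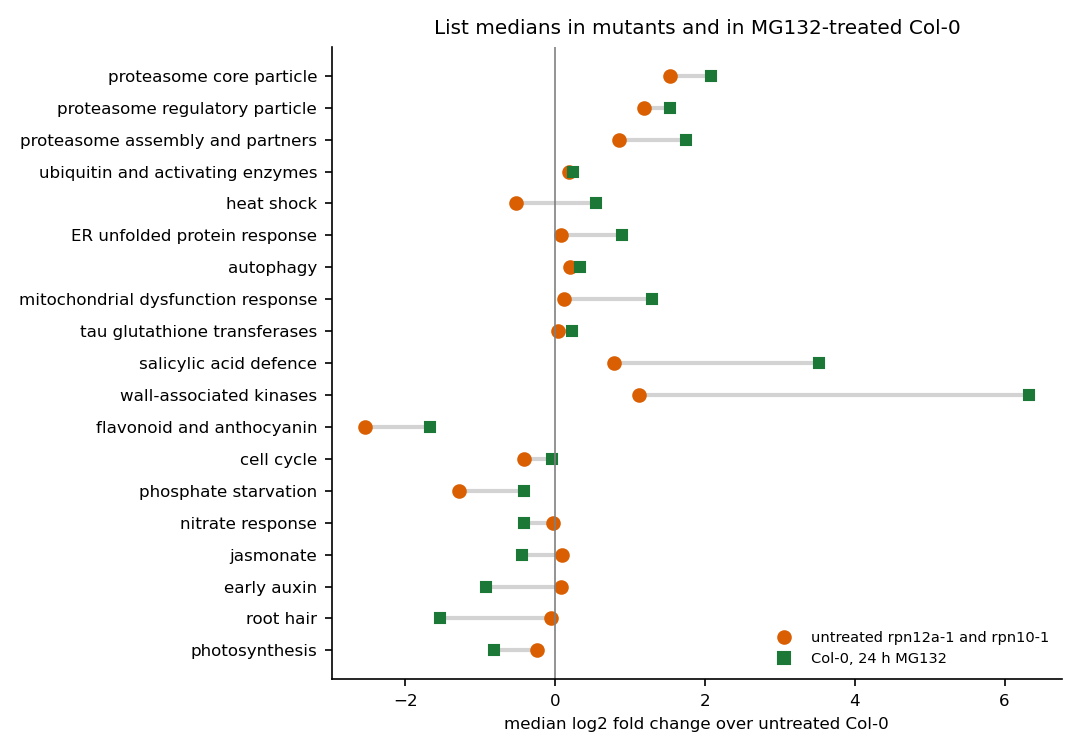
Median log2 change over untreated Col-0 (horizontal axis) of the tested genes of each list, as circles for the untreated mutants and squares for Col-0 24 h MG132, which share the untreated Col-0 libraries. Core particle genes have medians of 1.54 in the mutants and 2.08 under MG132, whereas ER genes have 0.08 in the mutants and 0.89 under MG132, and flavonoid genes have −2.54 in the mutants and −1.66 under MG132.

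Salicylic acid defence genes were lower in the mutants than under MG132. Salicylic acid is the hormone behind resistance to biotrophic pathogens, and its signalling raises pathogenesis-related proteins and WRKY factors. Of 21 genes, 18 were lower in the mutants and none was higher, with a median of −1.87. Against untreated Col-0, 3 were higher and none lower in the mutants (median 0.79), and 19 were higher and none lower under MG132 (median 3.52). The 3 higher in the mutants were WRKY38 (3.78), FMO1 (1.68) and CBP60G (1.41), and the number was 6 without rpn12a-1 replicate 1.

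PR1, a secreted pathogenesis-related protein gene, stood at 0.235 and 0.329 CPM in rpn12a-1, 0.0684 and 0.186 CPM in rpn10-1, 358, 273, 44.2 and 15.6 CPM under MG132, and 0.198, 0, 0 and 0 CPM in untreated Col-0. The MG132 libraries spanned a wide range and all lay far above the mutants, a change of −8.98 ± 0.62 (adjusted p = 2.2e-07). PBS3, an enzyme gene of salicylic acid synthesis, stood at 0.118 and 0.141 CPM in rpn12a-1, 0.205 and 0.0931 CPM in rpn10-1, 47.4, 48.6, 40 and 12.6 CPM under MG132, and 0.396, 0.102, 0.0723 and 0 CPM in untreated Col-0, a change of −7.88 ± 0.55 (adjusted p = 2.2e-07). FRK1, a receptor-like kinase gene induced by flagellin peptide, stood at 0.176 and 0.0941 CPM in rpn12a-1, 0.274 and 0.0931 CPM in rpn10-1, 13.3, 11, 15.2 and 5.55 CPM under MG132, and 0.33, 0.512, 0.217 and 0.0692 CPM in untreated Col-0. Its change was −6.05 ± 0.43 (adjusted p = 2.8e-07). In all 3 genes the mutants, like untreated Col-0, stayed far below every MG132 library.

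WRKY70, a transcription factor gene of the salicylic acid pathway, stood at 1.29 and 2.87 CPM in rpn12a-1, 4.11 and 5.49 CPM in rpn10-1, 87, 57, 48.5 and 19.4 CPM under MG132, and 2.84, 3.59, 2.17 and 2.14 CPM in untreated Col-0, a change of −3.95 ± 0.33 (adjusted p = 1.1e-06). Within sets the list medians were −1.90 for rpn12a-1, with 15 of 21 called lower, and −2.10 for rpn10-1, with 17 called lower. In each of PR1, PBS3, FRK1 and WRKY70, MG132 replicate 4 was the lowest library of its group.

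Wall-associated kinases, receptor kinases that bind cell wall pectin, had 3 of 5 listed genes tested, of which 2 were lower in the mutants, with a median of −6.25. Under MG132 all 3 were higher than in untreated Col-0, and none was called in the mutants against untreated Col-0 by edgeR, where 1 passed an unadjusted p under 0.05 and DESeq2 called 1. WAK1 stood at 1 and 0.753 CPM in rpn12a-1, 5.75 and 1.68 CPM in rpn10-1, 254, 177, 135 and 76.5 CPM under MG132, and 1.45, 4.1, 0.651 and 2.07 CPM in untreated Col-0. Its change was −6.25 ± 0.44 (adjusted p = 2.2e-07). WAK3 had 0 CPM in both rpn12a-1 libraries, 0.205 and 0.186 CPM in rpn10-1 and 21.4, 17.5, 14.3 and 4.77 CPM under MG132, and no count in untreated Col-0, so that MG132 was at least 242-fold higher than untreated Col-0 with 3 counts over that group as the floor.

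WAK2, the third of these tandem genes, was called higher under MG132 than in untreated Col-0 (1.97 ± 0.35, adjusted p = 0.001), but its change between mutants and MG132, −0.85 ± 0.34, was not called (adjusted p = 0.084). It had 25 and 30.2 CPM in rpn12a-1, 57.8 and 13.3 CPM in rpn10-1, 82.5, 61.7, 52.8 and 34.7 CPM under MG132, and 11.1, 13.3, 14.2 and 18.3 CPM in untreated Col-0. The rpn10-1 libraries lay on either side of rpn12a-1, and without rpn10-1 replicate 1 the change was called (−1.30, adjusted p = 0.01).

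The 10 genes with the largest changes toward MG132 included 5 that were near 0 in the mutants and in untreated Col-0 alike. PNP-A, a natriuretic peptide-like gene, stood at 0.118 and 0.047 CPM in rpn12a-1, 0.274 and 0.372 CPM in rpn10-1, 388, 311, 65 and 27 CPM under MG132, and 0.528, 0.307, 0.0723 and 0.0692 CPM in untreated Col-0, a change of −9.74 ± 0.40 (adjusted p = 7.5e-10). LURP1, which takes part in resistance to downy mildew, stood at 0.0588 and 0 CPM in rpn12a-1, 0.753 and 0.0931 CPM in rpn10-1, 250, 228, 97.2 and 39 CPM under MG132, and 0, 2.15, 0.0723 and 0.0692 CPM in untreated Col-0. Its change was −9.43 ± 0.70 (adjusted p = 3.7e-07). ANK, annotated as an ankyrin protein, had no count in any mutant library and 19, 13.7, 4.51 and 2.11 CPM under MG132, at least 181-fold more under MG132 with 3 counts over the mutant group as the floor, and 0, 0.205, 0 and 0.0692 CPM in untreated Col-0.

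PCR1, annotated as PLANT CADMIUM RESISTANCE 1, had 2 counts over the 4 mutant libraries and 69.6, 53.5, 12.8 and 3.65 CPM under MG132, a summed level 943 times higher under MG132 (95% counting interval 261 to 7800). AT1G57630, a gene for a protein with a Toll-Interleukin-Resistance domain, had 1 count over the mutants and 20.9, 23.3, 15.9 and 5.83 CPM under MG132, 991 times higher (177 to 39200). Without rpn12a-1 replicate 2 the ratio was 628 (174 to 5190) for PCR1 and 660 (118 to 26100) for AT1G57630. MG132 replicate 4 was again the lowest library for these 5 genes. The counting intervals and floors cover counting error only.

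The promoter of FRK1 is shown for TTGAC, the core of the W-box that WRKY factors bind, in capitals in either orientation (GTCAA on the other strand). The window is chr2:8329945-8330194 on the minus strand in TAIR10.1, the 250 bases before the gene start.
FRK1: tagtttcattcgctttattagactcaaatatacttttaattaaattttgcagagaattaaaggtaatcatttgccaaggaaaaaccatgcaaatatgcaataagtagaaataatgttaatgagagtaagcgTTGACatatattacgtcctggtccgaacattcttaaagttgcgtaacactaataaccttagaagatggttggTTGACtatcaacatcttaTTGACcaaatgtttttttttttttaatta
FRK1 holds 3 matches. TTGAC was present in 9 of 21 salicylic acid defence windows (42.9%), against 12329 of 27443 windows of all nuclear protein-coding genes (44.9%), a share no higher than that of all genes in windows of this length.

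**Figure D4:**
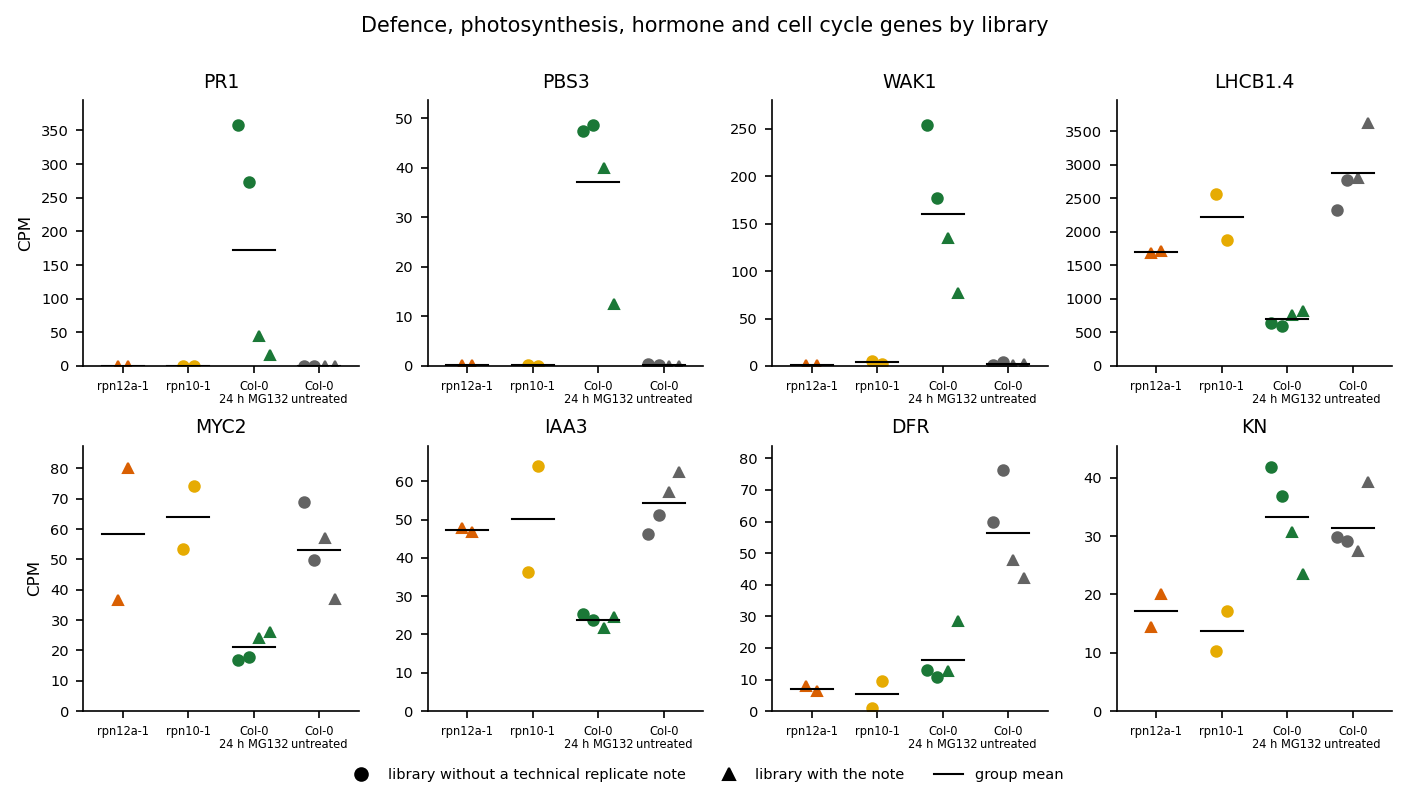
CPM in each library for 8 genes of defence, photosynthesis, jasmonate, auxin, flavonoid and cell cycle lists, drawn for rpn12a-1, rpn10-1, Col-0 24 h MG132 and untreated Col-0 from left to right with bars at the group means (circles for libraries without the note, triangles for those with it). PR1, PBS3 and WAK1 are near 0 in the mutants and high under MG132, LHCB1.4, MYC2 and IAA3 are lowest under MG132, DFR is highest in untreated Col-0, and KN is lowest in the mutants.

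Photosynthesis genes were higher in the mutants than under MG132. Of 42 nuclear genes for light harvesting, photosystem and carbon fixation proteins, 28 were higher and none lower, with a median of 0.60. All 4 mutant libraries lay above all 4 MG132 libraries for 16 of the 42, where such a gap occurred for 10.4% of the genes tested. Against untreated Col-0, 1 was higher and 1 lower in the mutants (median −0.25), and none was higher and 40 were lower under MG132 (median −0.81). The count of 28 was 16 without MG132 replicate 1, 14 without replicate 2, 12 without replicate 3 and 16 without rpn12a-1 replicate 2.

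LHCB1.4, a light-harvesting protein gene of photosystem II, stood at 1690 and 1710 CPM in rpn12a-1, 2560 and 1880 CPM in rpn10-1, 640, 592, 767 and 827 CPM under MG132, and 2320, 2770, 2800 and 3620 CPM in untreated Col-0, a change of 1.48 ± 0.19 (adjusted p = 5.5e-05). LHCA1, its counterpart in photosystem I, stood at 3860 and 4050 CPM in rpn12a-1, 3690 and 3510 CPM in rpn10-1, 1240, 1190, 1740 and 2340 CPM under MG132, and 2430, 3390, 4340 and 5040 CPM in untreated Col-0. Its change was 1.26 ± 0.17 (adjusted p = 0.00011). In both genes the 4 MG132 libraries were the lowest of all. RBCS2B, a gene for the Rubisco small subunit, was also above untreated Col-0 in the mutants: it stood at 4290 and 4200 CPM in rpn12a-1, 3640 and 3580 CPM in rpn10-1, 2070, 1760, 1450 and 2090 CPM under MG132, and 2170, 3320, 2240 and 2210 CPM in untreated Col-0.

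The RBCS2B change was 1.10 ± 0.19 against MG132 (adjusted p = 0.00066) and 0.67 ± 0.18 against untreated Col-0 (adjusted p = 0.033). RCA, the Rubisco activase gene, differed from MG132 by 0.81 ± 0.15 (adjusted p = 0.001). These genes also mark leaf mesophyll, and all 42 had counts in each group; their summed level ranged over 92300 to 129000 CPM in the mutants, 64100 to 88100 CPM under MG132 and 112000 to 154000 CPM in untreated Col-0. In RNA from whole seedlings, fewer cells of a type and less RNA per cell cannot be told apart.

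Early auxin genes, which answer auxin within minutes and include the Aux/IAA repressors that the proteasome itself degrades, had 8 of 15 members higher in the mutants and none lower, with a median of 1.03. Against untreated Col-0, 1 was higher and none lower in the mutants (median 0.09), and none was higher and 7 were lower under MG132 (median −0.92). IAA6 stood at 3.06 and 3.01 CPM in rpn12a-1, 1.98 and 2.79 CPM in rpn10-1, 0.643, 0.272, 0.444 and 0.772 CPM under MG132, and 1.25, 1.33, 2.68 and 2.97 CPM in untreated Col-0, a change of 2.36 ± 0.30 (adjusted p = 5.8e-05). IAA3 stood at 47.8 and 46.7 CPM in rpn12a-1, 36.3 and 63.9 CPM in rpn10-1, 25.4, 23.7, 21.6 and 24.6 CPM under MG132, and 46.2, 51.3, 57.1 and 62.4 CPM in untreated Col-0. Its change was 1.03 ± 0.18 (adjusted p = 0.00079). Both Aux/IAA genes were lowest under MG132, with the mutants in or near the range of untreated Col-0.

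IAA19 had a like difference of 1.07 ± 0.21 (adjusted p = 0.0018), but a library of rpn10-1 at 9.1 CPM fell within the MG132 range of 7.29 to 10.7 CPM. The within-set fits called 11 of the 15 higher in rpn12a-1, with a median of 0.92, and 1 in rpn10-1, with a median of 0.80.

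Jasmonate genes, of the wound and herbivore hormone pathway, had 6 of 15 members higher in the mutants and 1 lower, with a median of 1.01. Against untreated Col-0, 2 were higher and 1 lower in the mutants (median 0.10), a count of 2 that was 6 without rpn12a-1 replicate 1, and 1 was higher and 4 lower under MG132 (median −0.44). MYC2, the main transcription factor of the pathway, stood at 36.6 and 80.2 CPM in rpn12a-1, 53.6 and 74.3 CPM in rpn10-1, 16.8, 17.8, 24 and 26.1 CPM under MG132, and 68.8, 49.8, 57 and 37.1 CPM in untreated Col-0. The MG132 libraries were lowest and the mutants spread across the untreated Col-0 range, a change of 1.54 ± 0.26 against MG132 (adjusted p = 6e-04). LOX3, a lipoxygenase gene of jasmonate synthesis, stood at 5.88 and 9.69 CPM in rpn12a-1, 12.3 and 11.3 CPM in rpn10-1, 2.79, 2.9, 3.87 and 3.44 CPM under MG132, and 3.63, 6.56, 6.58 and 6.71 CPM in untreated Col-0, a change of 1.59 ± 0.28 (adjusted p = 8e-04).

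JAZ7, a repressor gene of the pathway, was high in the mutants rather than low under MG132. It stood at 0.529 and 2.07 CPM in rpn12a-1, 2.12 and 1.96 CPM in rpn10-1, 0.322, 0.634, 0.19 and 0.14 CPM under MG132, and 0.264, 0.307, 0.217 and 0.346 CPM in untreated Col-0. Its change was 2.41 ± 0.48 against MG132 (adjusted p = 0.0023) and 2.49 ± 0.48 against untreated Col-0 (adjusted p = 0.0037). The member that was lower in the mutants, PDF1.2A, a defensin gene of the jasmonate and ethylene pathway chosen after its values were seen, had no count in any mutant library and 2.14, 2.54, 0.19 and 0 CPM under MG132. It was at least 21.5-fold higher under MG132 with 3 counts over the mutant group as the floor.

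Abscisic acid genes had 2 of 16 members higher in the mutants and none lower, with a median of 0.31, a share near the 11.1% of all genes called higher. Against untreated Col-0, 1 was higher and 3 lower in the mutants (median −0.12), and none was higher and 4 were lower under MG132 (median −0.60). KIN1 was low on both sides, by −2.74 in the mutants and −2.08 under MG132. RD22, a drought-responsive gene, stood at 324 and 288 CPM in rpn12a-1, 269 and 264 CPM in rpn10-1, 106, 109, 96 and 101 CPM under MG132, and 170, 208, 158 and 172 CPM in untreated Col-0. Its groups formed 3 steps with untreated Col-0 in the middle, 1.48 ± 0.13 between mutants and MG132 (adjusted p = 2e-06) and 0.70 ± 0.13 between mutants and untreated Col-0 (adjusted p = 0.0025). NCED3, the drought-induced enzyme gene of abscisic acid synthesis, stood at 5.94 and 8.75 CPM in rpn12a-1, 2.81 and 2.98 CPM in rpn10-1, 0.643, 1.18, 1.4 and 0.772 CPM under MG132, and 5.21, 3.18, 4.41 and 3.04 CPM in untreated Col-0, a change of 2.27 ± 0.46 (adjusted p = 0.0027). Of 8 type-A response regulator genes of the cytokinin pathway, ARR16 alone was called, lower in the mutants by −1.17 ± 0.20 (adjusted p = 7e-04). That share is near the 11.0% of all genes called lower.

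Nitrate response genes had 5 of 9 members higher in the mutants and none lower, with a median of 0.63, and the count was 3 without MG132 replicate 1, MG132 replicate 2, rpn12a-1 replicate 1 or rpn10-1 replicate 2. The within-set medians were 0.08 for rpn12a-1, with 1 gene called higher, and 0.67 for rpn10-1, with 4 called higher. None of the 9 was called in the mutants against untreated Col-0, and 3 were lower under MG132. NIR1, the nitrite reductase gene, stood at 485 and 442 CPM in rpn12a-1, 616 and 485 CPM in rpn10-1, 232, 249, 304 and 341 CPM under MG132, and 463, 479, 387 and 414 CPM in untreated Col-0. Its change was 0.84 ± 0.15 (adjusted p = 0.001). Within sets it was called for rpn10-1 (1.18, adjusted p = 0.017) and not for rpn12a-1 (0.52, adjusted p = 0.051). RFNR2, a root ferredoxin reductase gene that supplies electrons to that enzyme, differed by 1.03 ± 0.21 (adjusted p = 0.0024).

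Both nitrate assimilation genes were lowest under MG132. Of 5 carbon starvation genes, 2 were higher in the mutants and none lower: ASN1, an asparagine synthetase gene, at 2.36, and SEN1, a gene raised in senescence and darkness, at 1.08 ± 0.21 (adjusted p = 0.0016). SEN1 stood at 52.2 and 75.6 CPM in rpn12a-1, 25.3 and 33.3 CPM in rpn10-1, 17.8, 12.1, 28.4 and 27.4 CPM under MG132, and 21.5, 16.2, 73.5 and 70.3 CPM in untreated Col-0, so that its levels moved with the library set, in which rpn12a-1, MG132 replicates 3 and 4 and untreated Col-0 replicates 3 and 4 were the higher ones.

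Root hair genes, which also mark root hair cells, had 3 of 11 members higher in the mutants and none lower, with a median of 1.27, and the count was 6 without MG132 replicate 3. Against untreated Col-0 none was called in the mutants, and 3 were lower under MG132, a count that was 5 without untreated Col-0 replicate 4 and 8 without MG132 replicate 3. LRX1, a cell wall protein gene of growing root hairs, stood at 10.5 and 8.89 CPM in rpn12a-1, 14 and 41.8 CPM in rpn10-1, 1.07, 1.36, 8.7 and 5.06 CPM under MG132, and 23.1, 4.2, 18.7 and 7.61 CPM in untreated Col-0. Its change of 2.24 ± 0.70 (adjusted p = 0.032) rested on the set without the note, with 4.47 for rpn10-1 and 0.48 for rpn12a-1 within sets.

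The LRX1 call was lost without MG132 replicate 1 (adjusted p = 0.1), replicate 2 (0.11) or replicate 4 (0.051) or without rpn10-1 replicate 2 (0.093). Over all 11 genes, each with counts in every group, the within-set medians were 0.45 for rpn12a-1, with 1 called lower, and 3.66 for rpn10-1, with 10 called higher. The summed level of the list ranged over 68.2 to 191 CPM in the mutants, 7.93 to 70.6 CPM under MG132 and 52.1 to 155 CPM in untreated Col-0, and the part of root hair cell number in these results was not tested.

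A smaller set of changes was on the mutants' side, where the MG132 libraries stayed near untreated Col-0. Cell cycle genes, of mitosis, cytokinesis and replication, had 7 of 21 members lower in the mutants than under MG132 and none higher, with a median of −0.31. Against untreated Col-0, 5 were lower and none higher in the mutants (median −0.41), and the 5 became 3 without untreated Col-0 replicate 4 or without rpn10-1 replicate 1. Under MG132 none was called against untreated Col-0 by edgeR, by DESeq2 or at an unadjusted p under 0.05 (median −0.04).

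KN, the syntaxin gene of the dividing cell plate known as KNOLLE, stood at 14.4 and 20.1 CPM in rpn12a-1, 10.3 and 17.2 CPM in rpn10-1, 41.8, 36.9, 30.7 and 23.5 CPM under MG132, and 29.8, 29.1, 27.4 and 39.3 CPM in untreated Col-0. All mutant libraries lay below all others, a change of −1.09 ± 0.21 against MG132 (adjusted p = 0.0019) and −1.02 ± 0.21 against untreated Col-0 (adjusted p = 0.0059). CYCB1;2, a mitotic cyclin gene, stood at 10.9 and 13.2 CPM in rpn12a-1, 8.76 and 14.2 CPM in rpn10-1, 27.6, 25.4, 19.7 and 16.9 CPM under MG132, and 17.2, 16.8, 17.5 and 21.2 CPM in untreated Col-0, again with the mutants lowest, by −0.91 ± 0.17 against MG132 (adjusted p = 0.0016). The replication genes MCM2, MCM5, PCNA1 and PCNA2 were not called, at −0.11, 0.07, −0.18 and −0.10.

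Flavonoid and anthocyanin genes were lower than in untreated Col-0 on both sides. Of 12 members, 3 were lower in the mutants than under MG132 and none higher, with a median of −0.81. Against untreated Col-0, 11 were lower in the mutants (median −2.54) and 10 were lower under MG132 (median −1.66), with none higher in either. UF3GT, an anthocyanin glycosyltransferase gene, stood at 2.06 and 1.65 CPM in rpn12a-1, 0.342 and 1.49 CPM in rpn10-1, 3.86, 2.54, 3.43 and 7.93 CPM under MG132, and 22.4, 22.3, 17.5 and 13.8 CPM in untreated Col-0, a change of −1.67 ± 0.42 (adjusted p = 0.0097). PAP1, a MYB activator gene of the pathway, stood at 0.471 and 0.659 CPM in rpn12a-1, 0.274 and 0.838 CPM in rpn10-1, 2.04, 1.36, 1.33 and 2.46 CPM under MG132, and 3.56, 4.41, 4.41 and 3.11 CPM in untreated Col-0. Its change was −1.68 ± 0.43 (adjusted p = 0.012).

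In both genes every mutant library lay below every MG132 library and every MG132 library below untreated Col-0. The early flavonoid genes CHS, CHI, F3H and FLS1 were not called between mutants and MG132, at −0.45, 0.30, −0.02 and 0.14, although each was lower than untreated Col-0 on both sides.

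Of 15 phosphate starvation genes, 4 were lower in the mutants than under MG132 and none higher, with a median of −0.99, and no member separated the 4 mutant from the 4 MG132 libraries. The within-set medians were −0.25 for rpn12a-1, with 1 gene called higher, and −2.15 for rpn10-1, with 11 called lower. The count of 4 was 1 without MG132 replicate 1 or 2, 2 without rpn12a-1 replicate 1 or rpn10-1 replicate 1, and 10 without rpn12a-1 replicate 2.

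SPX3, a gene of a phosphate-sensing domain protein, stood at 0.176 and 0.8 CPM in rpn12a-1, 1.37 and 0.372 CPM in rpn10-1, 47, 29.3, 1.33 and 1.33 CPM under MG132, and 23, 35, 0.434 and 1.31 CPM in untreated Col-0. PS2, annotated as an inorganic pyrophosphatase and induced by phosphate shortage, stood at 3.18 and 7.86 CPM in rpn12a-1, 13.6 and 1.68 CPM in rpn10-1, 199, 123, 8.06 and 7.79 CPM under MG132, and 141, 231, 14.3 and 15.1 CPM in untreated Col-0. Both were high in Col-0 replicates 1 and 2, treated or not, and low in replicates 3 and 4 and in both mutants. Against untreated Col-0, 9 of the 15 were lower in the mutants, a count that was 4 and 2 without untreated Col-0 replicates 1 and 2, 2 without rpn10-1 replicate 1 and 5 without rpn10-1 replicate 2, and none was called under MG132 by edgeR, where 2 passed an unadjusted p under 0.05 and DESeq2 called 1.

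Stomatal lineage genes, markers of guard cell precursors, had 2 of 8 members lower in the mutants than under MG132 and none higher, with a median of −0.35. The within-set medians were −0.02 for rpn12a-1, with 0 genes called, and −0.76 for rpn10-1, with 1 called lower. Against untreated Col-0, 4 were lower in the mutants and 1 under MG132, and the 4 became 2 when untreated Col-0 replicate 2, 3 or 4, rpn12a-1 replicate 1 or rpn10-1 replicate 1 was left out. EPF2, a signal peptide gene of early lineage cells, stood at 0.941 and 0.988 CPM in rpn12a-1, 0.821 and 1.3 CPM in rpn10-1, 3.75, 3.71, 2.22 and 1.54 CPM under MG132, and 2.64, 5.33, 2.75 and 4.29 CPM in untreated Col-0, a change of −1.39 ± 0.33 (adjusted p = 0.0071). Within sets EPF2 was called for rpn10-1 (−1.84, adjusted p = 0.036) and not for rpn12a-1 (−0.97, adjusted p = 0.12). The list's summed level was 57.8 to 78.2 CPM in the mutants, 68.5 to 89.3 CPM under MG132 and 90.3 to 116 CPM in untreated Col-0, with counts for all 8 genes in each group, and the part of cell number was not tested.

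Seed storage genes, whose transcripts remain from the embryo, had 4 of 8 listed genes tested, and all 4 were higher in the mutants, although 2 were called without rpn10-1 replicate 2. Within sets 1 was called higher for rpn12a-1 (median 4) and 0 for rpn10-1 (median 5.21). Against untreated Col-0, 0 were higher and 1 lower in the mutants by edgeR (median 2.15), with 2 higher at an unadjusted p under 0.05. Under MG132, 0 were higher and 2 lower (median −3.51). CRA1, a cruciferin gene, had 2 and 3.53 CPM in rpn12a-1, 0.205 and 30.2 CPM in rpn10-1, 0, 0, 0.0635 and 0.14 CPM under MG132, and 1.12, 2.15, 2.39 and 1.66 CPM in untreated Col-0. The rpn10-1 libraries were the lowest and the highest of the untreated ones, and the summed level was 115 times that under MG132, where 3 counts were found (95% counting interval 39.1 to 560). Without rpn10-1 replicate 2 the ratio was 35.6 (11.9 to 175), and without MG132 replicate 4 it was 248 (44.2 to 9800). The list's summed level was 1.16 to 68.9 CPM in the mutants, 0.0905 to 0.858 CPM under MG132, where SESA4 and CRU2 were at 0, and 2.51 to 5.64 CPM in untreated Col-0. The MG132 seedlings were a day older, and age and MG132 cannot be told apart here.

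**Figure D5:**
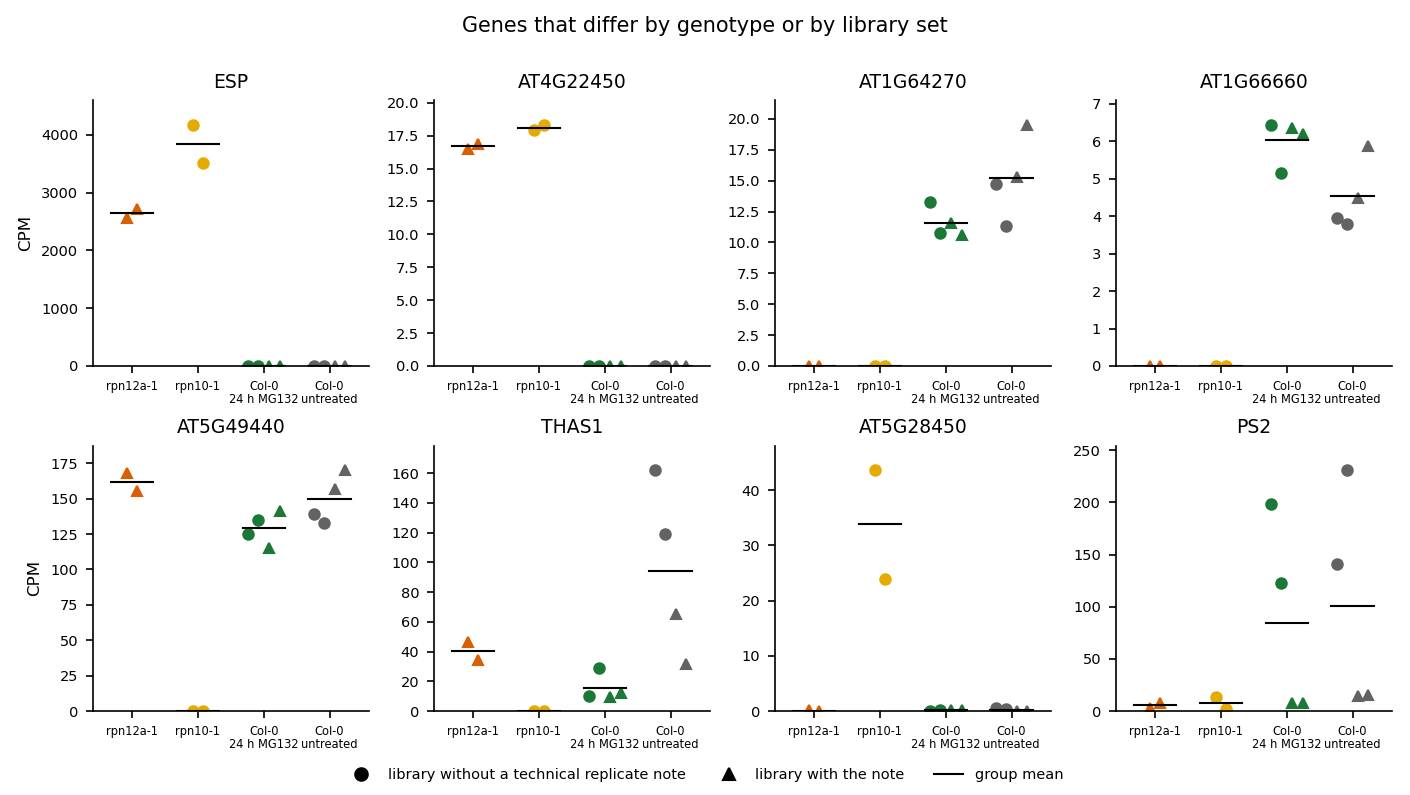
CPM in each library for 8 genes whose levels followed the genotype or the library set, drawn for rpn12a-1, rpn10-1, Col-0 24 h MG132 and untreated Col-0 from left to right with bars at the group means (circles for libraries without the note, triangles for those with it). ESP and AT4G22450 are present in both mutants and near 0 or at 0 in Col-0, AT1G64270 and AT1G66660 are at 0 in both mutants, AT5G49440 and THAS1 are at 0 in rpn10-1, AT5G28450 is present in rpn10-1, and PS2 follows the library set in Col-0.

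The most extreme changes between mutants and MG132 were of another kind: genes present in both mutants and at or near 0 in every Col-0 library, or the reverse, whether MG132 was given or not. Of the 10 largest changes toward the mutants 9 were of this kind, CYP710A4 being the exception, and so were 5 of the 10 largest changes toward MG132. ESP, which encodes the epithiospecifier protein that steers glucosinolate breakdown and is known to vary among accessions, stood at 2570 and 2720 CPM in rpn12a-1, 4170 and 3510 CPM in rpn10-1, 0.322, 1.09, 1.33 and 1.19 CPM under MG132, and 1.98, 3.59, 2.17 and 4.22 CPM in untreated Col-0. The change was 11.67 ± 0.50 against MG132 (adjusted p = 8.6e-10) and 10.13 ± 0.46 against untreated Col-0 (adjusted p = 2.2e-09).

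AT4G22450, an uncharacterized gene on chromosome 4, had 16.5 and 16.9 CPM in rpn12a-1 and 17.9 and 18.3 CPM in rpn10-1 and no count in any of the 12 Col-0 libraries, at least 290-fold more than under MG132 with 3 counts over the MG132 group as the floor. AT1G63540, annotated as a hydroxyproline-rich glycoprotein, had 7.76 and 8.84 CPM in rpn12a-1 and 17.8 and 13.7 CPM in rpn10-1 and none under 24 h MG132, at least 192-fold more. AT1G61510 and AT2G15160, both uncharacterized, were at least 152-fold and at least 153-fold higher in the mutants. In these 4 genes the difference was between presence and absence, in both mutants alike.

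The other 5 of the 10 had 1 count over the 4 MG132 libraries. AT4G29200, annotated as beta-galactosidase related, had 13.8 and 14.3 CPM in rpn12a-1 and 129 and 129 CPM in rpn10-1, a summed level 3020 times that under MG132 (95% counting interval 541 to 119000). AT5G41660, uncharacterized, had 29.8 and 27 CPM in rpn12a-1 and 35 and 33.2 CPM in rpn10-1, a ratio of 1540 (277 to 61000). For CYP710A4, a cytochrome P450 gene, the ratio was 364 (65 to 14400), for AT5G32460, annotated as a B3 family transcription factor, 353 (63.1 to 14000), and for AT4G16215, uncharacterized, 295 (52.7 to 11700). The wide intervals follow from the single count. CYP710A4 had 0.594, 0.512, 0.94 and 0.622 CPM in untreated Col-0 and was lower under MG132 than there, by −4.56 (adjusted p = 0.00045). Without rpn10-1 replicate 1 the ratio was 1970 (354 to 78000) for AT4G29200 and 201 (35.7 to 8000) for AT5G32460.

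In the opposite direction 5 genes of the 10 largest changes had no count in any mutant library and were present in Col-0 with or without MG132. AT1G64270, uncharacterized, at chr1:23850572-23852785, stood at 13.3, 10.8, 11.6 and 10.6 CPM under MG132 and 14.7, 11.3, 15.3 and 19.5 CPM in untreated Col-0, and was at least 243-fold lower in the mutants than under MG132, with 3 counts over the mutant group as the floor. AT1G66660, annotated as a protein with a RING/U-box and a TRAF-like domain, at chr1:24861876-24863426, stood at 6.43, 5.16, 6.35 and 6.18 CPM under MG132 and 3.96, 3.79, 4.48 and 5.88 CPM in untreated Col-0, at least 128-fold lower in the mutants. AT1G58807, annotated as a disease resistance protein of the CC-NBS-LRR class, was at least 109-fold lower in the mutants, AT1G58561 at least 275-fold and AT1G65985, with a DUF247 domain, at least 144-fold.

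Genes of this kind were also counted over all genes. No count in any mutant library, together with counts in all 12 Col-0 libraries and a Col-0 mean of at least 1 CPM, was found for 14 genes, and all 14 lie on chromosome 1, between positions 21701185 and 30424152 of TAIR10.1. RPN12A, the gene hit in rpn12a-1, lies at chr1:23956269-23958461, and RPN10, the gene hit in rpn10-1, lies on chromosome 4. The absence of the 14 genes from both mutants was part of the rule that chose them. The reverse, no count in the 12 Col-0 libraries with counts in all 4 mutant libraries and a mutant mean of at least 1 CPM, was found for 9 genes, of which 5 lie on chromosome 1, 2 on chromosome 4 and 2 on chromosome 5. All 4 mutant libraries lay above all 12 Col-0 libraries for 336 genes (1.58%), 133 of them on chromosome 1, and below all 12 for 455 genes (2.15%), 193 of them on chromosome 1, which holds 5553 of the 21205 genes tested. The labels do not give the accession of the mutants, and line and proteasome defect cannot be told apart in these libraries.

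The 4 mutant libraries were not uniform. The direct comparison of rpn12a-1 with rpn10-1 called 1338 genes, 816 higher and 522 lower, and depended on single libraries: it called 525 without rpn12a-1 replicate 1, 479 without rpn12a-1 replicate 2 and 781 without rpn10-1 replicate 1. AT5G49440, uncharacterized, stood at 168 and 155 CPM in rpn12a-1 and had no count in rpn10-1, with 125, 135, 115 and 141 CPM under MG132, so that rpn12a-1 was at least 1360-fold above rpn10-1. AT4G34881, uncharacterized, was at least 1130-fold higher in rpn12a-1, with 150 and 120 CPM there and 74.3, 81.9, 86.5 and 158 CPM under MG132. For both genes rpn10-1 was the group that stood apart.

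THAS1 and CYP705A5, neighbouring genes of thalianol synthesis, a triterpene pathway of roots, were without counts in rpn10-1. THAS1 had 46.3 and 34.2 CPM in rpn12a-1, 10.5, 28.8, 9.39 and 12.4 CPM under MG132, and 162, 119, 65.4 and 31.8 CPM in untreated Col-0, at least 335-fold more in rpn12a-1 than in rpn10-1. CYP705A5 had 89.2 and 77.1 CPM in rpn12a-1, 28.7, 61.5, 32.9 and 38.1 CPM under MG132, and 296, 213, 162 and 63.1 CPM in untreated Col-0, at least 697-fold more in rpn12a-1 than in rpn10-1. In the pooled group neither differed from MG132, with adjusted p of 0.84 and 0.96.

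AT2G36255, annotated as defensin-like, was present in rpn12a-1 alone at a high level, with 88.2 and 49.9 CPM, against no count in rpn10-1 and 0.322, 0.905, 0.19 and 0.492 CPM under MG132, at least 565-fold more in rpn12a-1 than in rpn10-1. AT5G28450, annotated as a chlorophyll A-B binding family protein, had the reverse pattern, with 0.118 and 0 CPM in rpn12a-1, 43.6 and 24 CPM in rpn10-1 and 0.107, 0.272, 0.127 and 0.14 CPM under MG132, a summed level 675 times higher in rpn10-1 (95% counting interval 186 to 5590). AT5G25920, uncharacterized, had no count in rpn12a-1 and 16.8 and 12.8 CPM in rpn10-1, at least 193-fold less in rpn12a-1.

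Of the 24 heat shock genes, 6 were lower in rpn12a-1 than in rpn10-1 with the library set as a term and none was higher, with a median of −1.22, against 2.46% of all genes tested that were lower. HSP90.1 was lower by −1.22 ± 0.26 (adjusted p = 0.014). The other 5 were HSP70 (−1.58), AT5G51440 (−1.53), MBF1C (−1.23), HOP3 (−1.07) and HSP101 (−0.76). Mean levels lay closer for HSP101, at 16.7 CPM in rpn12a-1 and 17.7 CPM in rpn10-1. The 6 became 1 without rpn12a-1 replicate 1 or 2, 3 without rpn10-1 replicate 1 or 2 and 0 without the set term, and 12 without a filter on low counts. With the set term, 10 of the 15 phosphate starvation genes were called higher in rpn12a-1 and none lower. The 10 became 4 without rpn12a-1 replicate 2 and 0 without the set term. By mean CPM, SPX1, SPX3, IPS1, PS2 and PEPC1 were lower in rpn12a-1, and MGD2, MGD3, PAP17, GDPD1 and RNS1 were higher. IPS1 averaged 2.39 CPM in rpn12a-1 and 2.63 CPM in rpn10-1, against a change of 4.85 with the set term. The mutants lie in different library sets. PBB1 was higher in rpn12a-1 by 0.59 ± 0.14 (adjusted p = 0.024) and AT2G21640 lower by −1.34 ± 0.30 (adjusted p = 0.016). The calls of HSP90.1, PBB1 and AT2G21640 were lost without rpn12a-1 replicate 1, with adjusted p of 0.097, 0.096 and 0.093, and those of PBB1 and AT2G21640 also without rpn12a-1 replicate 2 (0.11 and 0.07) or rpn10-1 replicate 1 (0.094 and 0.079). Of the 21 salicylic acid defence genes 1 was called higher and none lower in rpn12a-1, and of the 18 ER genes none was called by edgeR or DESeq2, with 2 at an unadjusted p under 0.05.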

How the data were processed

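Polyadenylated RNA of whole seedlings was sequenced as 16 libraries, of which 8 were compared and 4 untreated Col-0 libraries served as wild type. The deposited values are raw read counts per gene. Per the submitters' processing notes, Trimmomatic, TopHat, Bowtie2, HTSeq and edgeR were used with TAIR10. No versions were found in the labels, and neither was the handling of reads shared by gene copies. The library kit does not mark strand, so antisense and overlapping genes cannot be separated. The 16 libraries held 6646134 to 21762565 counts.

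In R 4.3.3, edgeR 4.0.16 was run with filterByExpr, TMM scaling, the quasi-likelihood F-test and Benjamini-Hochberg adjustment. The model covered all 16 libraries in 4 groups with the library set as a term, and 21205 of 33602 genes were tested. A second fit with the mutants as separate groups gave rpn12a-1 against rpn10-1. The SE is the absolute log2 change divided by the square root of F, an approximation. Replicates of each group differed by more than sampling noise, and those of rpn10-1 differed most. The chi-square per degree of freedom was 69.7 between the rpn10-1 libraries and 12.1 between the rpn12a-1 libraries. Pairs within MG132 gave 7.77 to 34.4 and pairs within untreated Col-0 14.2 to 43.7. Organelle genes held 4.89% of the counts in rpn10-1 replicate 2, against 0.469% to 1.29% in the rest of the mutant and MG132 libraries.

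Members and the 25 gene lists (419 entries, 404 tested) were chosen with earlier results of these data known, so list counts are descriptions. The naming rule took RPN10, RPN12A, NAC053 and NAC078. It added the 10 largest called changes in each direction among genes that averaged 5 CPM or more where they were higher, with the mutant and MG132 libraries not overlapping. It also took, per list, at most 4 genes by lowest p, and the 5 largest called changes in each direction between the mutants by the same criteria. The rule names 131 genes, of which some are described, and the text says where a gene was chosen otherwise. List members given by a log2 change alone, apart from ASN1, also lie outside the rule and were chosen after their values were seen.

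A fold against a group without counts uses a floor of 3 counts over that group, and ratios on 1 to 3 counts have exact 95% intervals, which cover counting error only. After the data were seen, these ratios were also computed with each library left out. No table of promoters was used: the windows are 250 bases read from the TAIR10.1 genome. A further window is not reported here. Alternatives were RLE size factors, no filter on low counts, DESeq2 1.42.0, no set term, a replicate block, each library left out, each mutant alone, each library set alone, only the 8 libraries, the mean of the mutants and a 2-fold minimum. The fit was tested on simulated data.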

Additional observations from a re-analysis of the deposited data

Results flagged for a closer look

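Among 98 genes described above, 294 groups of 4 libraries were examined for a library that stood apart from its group, measured as its gap to the nearest library as a share of the group's range. The cutoff flags about 1 in 20 groups of 4 independent, normally distributed values. These groups mix library sets, the mutant group mixes genotypes, and some groups have no counts, so that rate does not hold here. The number found was 25, several of them in genes with single counts.

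Among the 4 mutant libraries, rpn10-1 replicate 2 stood apart for HSP17.4 (0.652 CPM, next 0.137), LRX1 (41.8 CPM, next 14) and CRA1 (30.2 CPM, next 3.53), and rpn10-1 replicate 1 for LURP1 (0.753 CPM, next 0.0931) and PCR1 (0.137 CPM, the others at 0). Libraries of rpn12a-1 stood apart for AT1G57630 (replicate 1, 0.0588 CPM, the others at 0), JAZ7 (replicate 1, 0.529 CPM, next 1.96) and DIC2 (replicate 2, 38.8 CPM, next 15.1).

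Among the Col-0 24 h MG132 libraries, replicate 4 stood apart for PA200 (449 CPM, next 652) and AT4G34881 (158 CPM, next 86.5), and replicate 2 for THAS1 (28.8 CPM, next 12.4). A single count set apart replicate 3 for AT4G29200 (0.0635 CPM), replicate 4 for AT5G41660 and CYP710A4 (0.0702 CPM each) and replicate 1 for AT5G32460 and AT4G16215 (0.107 CPM each), with the others at 0.

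Among the untreated Col-0 libraries, replicate 1 stood apart for PDIL1-2 (65.5 CPM, next 51.4), LOX3 (3.63 CPM, next 6.56), PR1 (0.198 CPM, the others at 0) and AT1G57630 (0.066 CPM, the others at 0). Replicate 2 stood apart for LURP1 (2.15 CPM, next 0.0723), RBCS2B (3320 CPM, next 2240) and AOX1D (0.102 CPM, the others at 0), and replicate 4 for CYCB1;2 (21.2 CPM, next 17.5) and AT2G15160 (0.0692 CPM, the others at 0).

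Of the 98 genes, 15 differed between rpn12a-1 and rpn10-1 by edgeR with the library set as a term. The targeted genes did so as described, RPN10 by 3.97 and RPN12A by −1.56 on the log2 scale. PBB1 differed by 0.59, HSP90.1 by −1.22, AT2G21640 by −1.34, SPX3 by 3.84 and PS2 by 3.23, also on the log2 scale. PS2 averaged 5.52 CPM in rpn12a-1 and 7.65 CPM in rpn10-1, so its measured means went the other way. SPX3 had 0.176 and 0.8 CPM in rpn12a-1 and 1.37 and 0.372 CPM in rpn10-1, so the mutants' levels overlapped. Its level in untreated Col-0 was 23 and 35 CPM in the set without the note, which is that of rpn10-1, and 0.434 and 1.31 CPM in the set with the note. PR1 was called as well, from 11 counts in rpn12a-1 and 3 in rpn10-1, a ratio of summed levels of 2.43 (95% counting interval 0.642 to 13.6). AT5G49440, CYP705A5, AT4G34881, AT2G36255 and THAS1 were at least 1360-fold, 697-fold, 1130-fold, 565-fold and 335-fold higher in rpn12a-1, AT5G25920 was at least 193-fold lower in rpn12a-1, and AT5G28450 had a summed level 675 times higher in rpn10-1 than in rpn12a-1 (300 times without rpn12a-1 replicate 2). The mutants lie in different library sets, so genotype and set cannot be told apart here. The calls of SPX3 and PS2 were lost without rpn12a-1 replicate 2 (adjusted p of 0.46 and 0.18), and that of PR1 without any single mutant library (adjusted p from 0.052 to 0.22).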

How the results depend on the processing

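The 4667 calls between mutants and MG132 became 4627 with RLE size factors, 5617 without a filter on low counts, 5376 with DESeq2, 3797 without the set term, 4722 from the 8 libraries alone, 5652 with the mutants averaged, 5798 for rpn10-1 alone and 3428 within the set with the note, all within 1.5 times. They became 3060 for rpn12a-1 alone, 2848 within the set without the note, where fewer libraries were used, and 2012 with a 2-fold minimum. Without a filter, where more genes were tested, mutants against untreated Col-0 gave 3739 calls and rpn12a-1 against rpn10-1 gave 3025. For rpn12a-1 against rpn10-1 DESeq2 gave 2137 and the fit without the set term 782, and the cause was not tested. Leaving out each library gave 3396 to 4437 calls for mutants against MG132, 1206 to 2031 for mutants against untreated Col-0, 3150 to 4787 for MG132 against untreated Col-0 and 479 to 1754 for rpn12a-1 against rpn10-1. With the replicate number as a block in place of the set term the 4 counts were 4642, 2875, 4036 and 918. That block joins rpn12a-1 to Col-0 libraries of the other set. Deviations of same-numbered mutant and MG132 libraries correlated between −0.235 and 0.38, and of untreated Col-0 and 24 h MG132 between −0.188 and 0.396 (4 pairs each). The same-numbered rpn12a-1 and MG132 libraries lie in different sets, and the set was not removed from the deviations. These correlations therefore cannot decide whether the numbers pair the groups, and the main fit used no pairing. Deviations of untreated Col-0 and 3 h MG132, not compared here, correlated between 0.277 and 0.533. The direction turned for SPX3 and PS2 between the mutants, to −0.83 and −0.49 without the set term and −0.85 and −0.42 with the replicate block. For PAD1 the change was −0.19, turned to 0.02 for rpn12a-1 alone and 0.01 within the set with the note, and was called for rpn10-1 alone (−0.42, adjusted p = 0.042 by edgeR). For NAC103, not called under any alternative, it was −0.12 and turned to 0.06 for rpn12a-1 alone and 0.26 within the set with the note, and ranged from −0.23 to 0.01 with a library left out. The cause of these turns was not tested. Libraries of 1 group without a label of separate cultures, and genes with few counts in a group, limit the precision.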
